A study of Mus musculus with 6 samples.

Results

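The glypicans (Gpc1 to Gpc6) and the syndecans (Sdc1 to Sdc4) were followed in whole mouse kidneys at embryonic day 16 from embryos with a conditional deletion of the microRNA cluster miR-17~92. All 10 genes were taken by symbol as the complete families, of 13965 rows in the deposited expression table, and Gpc5 was of particular interest because it is the protein-coding gene next to the cluster. The mutant group held 3 libraries from kidneys that carried Six2-TGC with miR-17~92 flx/flx, and the control group held 3 libraries labelled WT, miR-17~92 flx/+. Six2-TGC is a transgene that expresses Cre recombinase from Six2 regulatory sequence, so recombination is directed to nephron progenitors and the cells derived from them, and other cells of the kidney keep the floxed alleles. Controls carried 1 floxed and 1 wild-type allele and their label names no Cre, so the transgene and the deletion differ together between the groups. Each of 3 litters gave 1 mutant and 1 control library.

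Glypicans and syndecans are cell surface proteins that carry heparan sulfate, a long sulfated sugar chain that binds growth factors. Glypicans hang from the membrane by a lipid anchor and syndecans cross it with a short cytoplasmic tail. In the developing kidney, heparan sulfate chains hold ligands such as GDNF, FGFs, BMPs and WNTs near their receptors, and loss of Gpc3 in mice gives overgrown, dysplastic kidneys. MicroRNAs lower the level of mRNAs whose 3′ untranslated region (UTR) pairs with the seed, bases 2 to 8 of the microRNA.

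The 6 mature microRNAs of the cluster are shown because their seeds define what was searched for in the 10 mRNAs. They are from RefSeq (GRCm38, chromosome 14, plus strand), written 5′ to 3′ with the seed in capitals.
miR-17-5p: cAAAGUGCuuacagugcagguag
miR-20a-5p: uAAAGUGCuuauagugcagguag
miR-18a-5p: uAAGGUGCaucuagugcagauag
miR-19a-3p: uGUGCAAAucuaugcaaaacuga
miR-19b-3p: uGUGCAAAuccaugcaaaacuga
miR-92a-3p: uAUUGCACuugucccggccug
The pair miR-17-5p and miR-20a-5p share a seed, as do miR-19a-3p and miR-19b-3p, which leaves 4 seed families. The matching letters on the mRNA strand are GCACTTT for miR-17/20a, GCACCTT for miR-18a, TTTGCAC for miR-19 and GTGCAAT for miR-92a, and no matches overlapped each other.

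The annotated 3′ UTR of the longest coding transcript of each gene was searched, and other annotated 3′ ends were not. None of the 6 glypicans held a match to any of the 4 families there, and each of the 4 syndecans held at least 1. The glypican UTRs ran from 359 bases in Gpc3 to 2215 bases in Gpc1, and that of Gpc5 had 742 bases. The 5 syndecan matches are shown as 29-base windows with the match in capitals, from GENCODE M21 (GRCm38), on the mRNA strand.
Sdc1, miR-19: gacaacttggtTTTGCACatattttctct
Sdc2, miR-92a: tagctgtcatgGTGCAATttgtctttgaa
Sdc2, miR-18a: acttcgtttgaGCACCTTccctgagcttg
Sdc3, miR-92a: aattcttcctaGTGCAATgtgggtgcggg
Sdc4, miR-18a: gagagcagcagGCACCTTaatgctgactt
Counted from the first base of the UTR, the Sdc1 match began at base 510 of 1908 and the Sdc2 matches at bases 465 and 1830 of 2395. The Sdc3 match began at base 2440 of 3510 and the Sdc4 match at base 85 of 1839. Only the matches in Sdc1 and Sdc4 were followed by an A opposite base 1 of the microRNA. Of 13263 UTRs of measured genes, 33.8% held a match to at least 1 family. Among UTRs of a length close to its own, that share was 42.0% for Sdc1, 50.6% for Sdc2, 63.1% for Sdc3 and 41.2% for Sdc4. For the glypicans it was 48.0% for Gpc1, 37.1% for Gpc6, 21.7% for Gpc5, 18.8% for Gpc2, 13.8% for Gpc4 and 10.2% for Gpc3. A match is a description of letters, and binding was not measured.

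The libraries held 46672915 to 54913325 reads in mutant and 43804667 to 49473404 reads in control kidneys. Expression is given in CPM, the authors' scaling of a gene's reads by library size, and 1 CPM stood for 43.8 to 54.9 reads. Cited1, a nephron progenitor gene, was at 9.32, 12.9 and 10.4 CPM in mutants 1 to 3, against 37.4, 53.1 and 51.9 CPM in controls 1 to 3. Six2, also a progenitor gene, was at 31.1, 43.9 and 40.8 CPM in mutants, against 41.5, 56.1 and 54.2 CPM in controls. Kidney markers were abundant in every library (8 podocyte genes summed to 652 to 727 CPM in mutants and 662 to 784 CPM in controls). Summed adrenal and gonad markers stayed below 6 CPM in all libraries, but only 2 of 6 adrenal and 2 of 5 gonad markers had a row. Summed stromal markers ran from 1612 to 1735 CPM in mutants and 1239 to 1423 CPM in controls, and endothelial markers from 1091 to 1105 CPM in mutants and 968 to 992 CPM in controls. Summed nephron progenitor markers ran from 489 to 508 CPM in mutants and 572 to 580 CPM in controls, and proximal tubule markers from 876 to 1069 CPM in mutants and 710 to 818 CPM in controls. Ureteric bud and collecting duct markers ran from 943 to 977 CPM in mutants and 818 to 866 CPM in controls, and macrophage markers from 106 to 131 CPM in mutants and 96.3 to 99.7 CPM in controls. Single markers did not all follow their sums. Of 10 nephron progenitor markers, Cited1 and Six2 among them, 6 were lower in mutants by log2 difference and 4 were higher. In the proximal tubule, ureteric bud and endothelial lists 6 of 8 were higher in each, against 53.1% of all rows. All 8 stromal and all 7 macrophage markers were higher. The part of these shifts in the values below was not tested, and in whole kidneys fewer cells of a type and less RNA per cell cannot be told apart.

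Gpc3 was by far the most abundant of the 10 genes. Scaled to the length of the transcript, its level was 309 ± 28.6 CPM per kb in mutant and 306 ± 32.2 CPM per kb in control kidneys (SD, n = 3 each), which in controls was 9.99 times that of the next gene. Gpc6 followed at 38.7 ± 1.20 CPM per kb in mutants and 30.6 ± 2.10 CPM per kb in controls. A middle group of Sdc4, Gpc4, Gpc2, Sdc1, Gpc1 and Sdc2 lay between 22.6 and 31.6 CPM per kb in mutants and between 22.2 and 29.6 CPM per kb in controls. Among controls every gene of that group overlapped its neighbour in the order, as Gpc6 did with Sdc4, while in mutants Gpc6 lay above Sdc4 and Sdc1 above Gpc1 without overlap. Sdc3 was lower, at 12.3 ± 0.881 CPM per kb in mutants and 11.3 ± 0.966 CPM per kb in controls. Gpc5 was the lowest at 1.55 ± 0.154 CPM per kb in mutants and 1.02 ± 0.148 CPM per kb in controls. The ranges of Sdc2 and Sdc3, and of Sdc3 and Gpc5, did not overlap in either genotype. In mutants the order was the same except that Sdc2 stood above Sdc1 and Gpc1. The row of Gpc2 also counts Gal3st4, a sulfotransferase gene that the authors joined with it, so its level is an upper limit for Gpc2. Annotated genes on the opposite strand overlap Gpc1 (3), Gpc3 (2), Gpc5 (3), Gpc6 (1) and Sdc3 (2), and without a stated strand setting their reads cannot be told apart from those of the named gene.

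**Figure D1:**
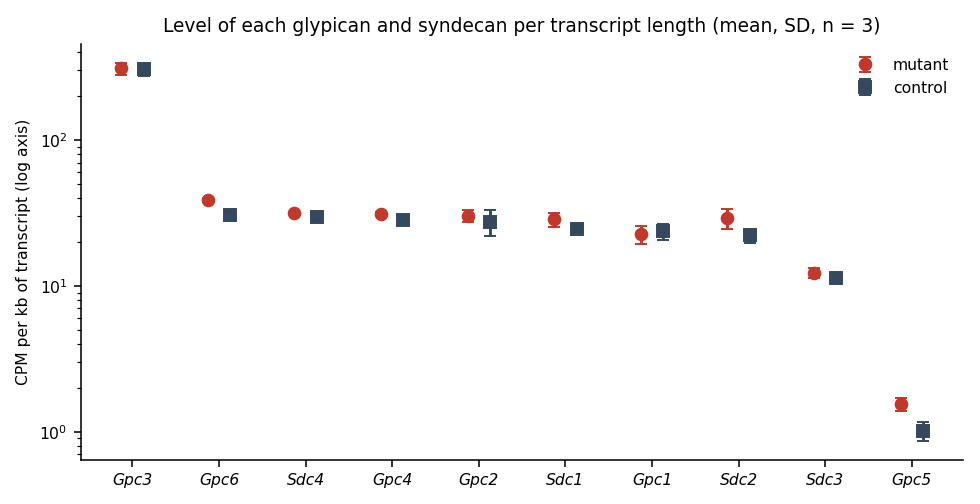
Mean level of each glypican and syndecan in mutant (red circles) and control (blue squares) kidneys, in CPM per kb of transcript on a log axis, with bars for the SD of 3 libraries. Gpc3 stands near 309 and 306 CPM per kb, and Gpc5 near 1.55 and 1.02 CPM per kb.

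The genes were compared between mutant and control kidneys with limma across all 13766 rows above a low-expression filter, on log2(CPM + 0.5), with p-values adjusted over all of these rows. With genotype alone in the model, none of the 10 genes passed an adjusted p of 0.05, where 0.559% of all rows passed (0.363% higher and 0.196% lower in mutants). An unadjusted p below 0.05 was reached by 3 of 10 genes and by 11.3% of all rows. With litter as a block, which compares each mutant with the control of its own litter, 4 of 10 rose and none fell, where 7.93% of all rows rose and 3.51% fell. The 4 were Gpc5, Gpc6, Sdc1 and Sdc2. The median difference of the 10 genes was 0.149 on the log2 scale, against 0.0119 for all rows, and 9 of 10 lay above 0, against 53.1% of all rows. In 4 of 10 genes (Gpc4, Gpc5, Gpc6 and Sdc2) every mutant library lay above every control library, as in 10.2% of all rows, and in none did every mutant lie below every control, as in 7.12% of all rows. The mutant was above its littermate in 3 of 3 litters for 7 of 10 genes, against 28.3% of all rows.

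**Figure D2:**
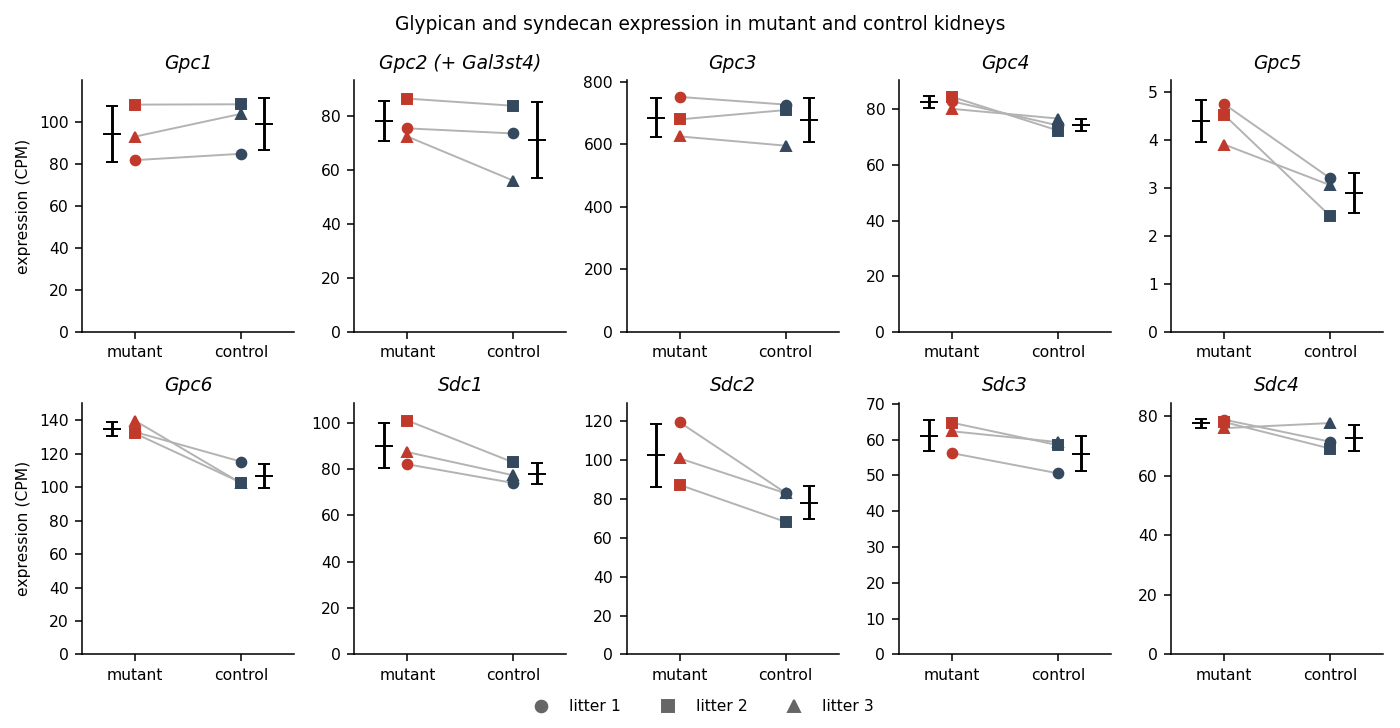
Expression in CPM of each gene in the 3 mutant (red, left) and 3 control (blue, right) libraries, with grey lines joining littermates and black bars for the mean and SD. The mutant points of Gpc4, Gpc5, Gpc6 and Sdc2 lie above all control points, and those of Gpc1 and Gpc3 overlap them.

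Gpc5, a glypican that binds Hedgehog ligands, lies on chromosome 14 at chr14:115092215-116525179 (GRCm38, plus strand), a gene of 1433.0 kb with a transcript of 2837 bases. It starts 47.7 kb after the end of Mir92-1, the last microRNA gene of the cluster, and is transcribed in the same direction. Gpc5 was at 4.74, 4.52 and 3.90 CPM in mutants 1 to 3, against 3.20, 2.41 and 3.05 CPM in controls 1 to 3. Every mutant library lay above every control library, and each lay above the control of its own litter. The means were 4.39 ± 0.436 CPM in mutants and 2.89 ± 0.419 CPM in controls (SD, n = 3 each), a ratio of 1.52. The log2 difference was 0.53 ± 0.15 (SE; 95% interval 0.19 to 0.88; adjusted p = 0.199). Paired by litter it was 0.53 ± 0.14 (SE; 95% interval 0.22 to 0.85; adjusted p = 0.0418), with 0.50, 0.79 and 0.31 in litters 1 to 3. An exact two-sided permutation test of 3 against 3 libraries gave p = 0.1, the smallest p it can give.

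Few reads stood behind these Gpc5 values, 229, 248 and 182 in mutants and 140, 106 and 151 in controls, whereas the other 9 genes had at least 2216 in each library. Exact 95% intervals for counting error alone were 4.15 to 5.40, 3.97 to 5.12 and 3.35 to 4.51 CPM in mutants 1 to 3. In controls 1 to 3 they were 2.69 to 3.77, 1.97 to 2.91 and 2.59 to 3.58 CPM. The interval of mutant 3 overlapped those of controls 1 and 3, while those of mutants 1 and 2 lay above all control intervals. Without litter 1 or without litter 2, the paired test of Gpc5 gave an adjusted p of 0.152 or 0.147, and without litter 3 it gave 0.0132.

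Gpc6, a close relative of Gpc4 whose human form is mutated in a skeletal dysplasia, begins 400.1 kb beyond the end of Gpc5 on the same strand. It was at 132.9, 132.0 and 139.6 CPM in mutants, against 115.2, 102.7 and 102.3 CPM in controls. The groups did not overlap, and mutant 3 was the highest of all 6 libraries. The log2 difference was 0.34 ± 0.08 (SE; adjusted p = 0.125), and paired by litter it was 0.34 ± 0.05 (SE; adjusted p = 0.00967). It was higher in mutants in 3 of 3 litters, and Gpc6 passed in 7 of 7 paired fits run.

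Mir17hg, the host transcript of the cluster, shares its row with the 6 microRNA genes inside it, so reads from the deleted stretch and from the rest cannot be separated. That row was at 53.6, 39.8 and 44.6 CPM in mutants, against 34.1, 36.4 and 23.0 CPM in controls. Mutants were again above controls without overlap, and the log2 difference was 0.57 ± 0.17 (SE; adjusted p = 0.222; paired by litter, adjusted p = 0.0292). Without control 3 the difference was 0.37, and without litter 1 the paired adjusted p was 0.0956. This value does not check the deletion, which the transgene directs to some cells of the kidney only. Of 6 tested genes listed for the neighbourhood of Gpc5, 2 rose in the paired test, Mir17hg and Gpc6, and none fell. Among all rows 7.93% rose and 3.51% fell when paired. Gpc6 is also counted above among the glypicans and syndecans that rose, so it is not a separate result here.

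**Figure D3:**
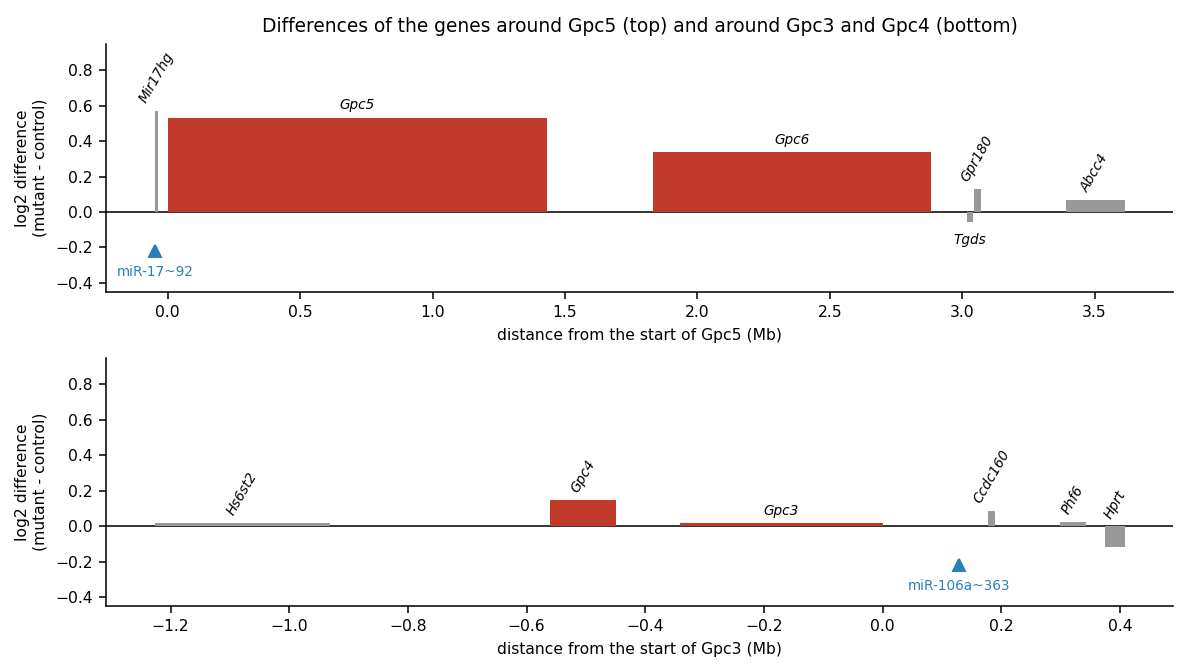
Log2 difference between mutant and control kidneys of glypicans and listed genes. The top panel shows those near Gpc5 (distance in Mb from the start of Gpc5). The bottom panel shows those near Gpc3 and Gpc4 (distance in Mb from the start of Gpc3). Bar width shows gene length (short genes widened to a visible minimum), and blue triangles mark the microRNA clusters. Measured genes that were not listed, such as Plac1 and C430049B03Rik near Gpc3, are not drawn. Mir17hg, Gpc5 and Gpc6 stand at 0.57, 0.53 and 0.34, and Gpc3 stands at 0.02.

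The X chromosome holds a second pair of glypican genes beside a related cluster. Gpc3 (chrX:52272426-52613950, minus strand) and Gpc4 (chrX:52053021-52165252, minus strand) lie 107.2 kb apart, and 127.7 kb upstream of Gpc3 lies Mir363, the nearest member of the miR-106a cluster, a paralogue of miR-17~92 that the genotypes leave intact. Gpc3, the glypican lost in human Simpson-Golabi-Behmel overgrowth syndrome, was at 751, 679 and 625 CPM in mutants, against 727, 709 and 595 CPM in controls. The values of both genotypes interleaved, and mutants were higher in 2 of 3 litters. The log2 difference was 0.02 ± 0.09 (SE; adjusted p = 0.970), and paired by litter its 95% interval was -0.07 to 0.11.

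Gpc4, which is expressed in several embryonic epithelia, was at 82.9, 84.5 and 80.2 CPM in mutants, against 74.2, 72.4 and 76.7 CPM in controls. The groups did not overlap but lay close together. The log2 difference was 0.15 ± 0.08 (SE; adjusted p = 0.536; paired by litter, adjusted p = 0.101), and the paired adjusted p was 0.0319 without litter 3. Of 6 tested genes listed for the neighbourhood of Gpc3 and Gpc4, none passed in either fit, where 0.559% of all rows passed unpaired and 11.4% when paired. The list does not hold every measured gene nearby, and Plac1 and C430049B03Rik were not on it. The most abundant of the 6 listed neighbours was Phf6, a chromatin-associated protein gene, whose log2 difference was 0.02 ± 0.11 (SE; adjusted p = 0.963).

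Gpc1 and Gpc2, the remaining glypicans, did not pass in either fit. Gpc1, widely expressed and known as a co-receptor for FGFs, was at 81.8, 108.3 and 93.1 CPM in mutants, against 84.9, 108.5 and 103.9 CPM in controls. It was the only one of the 10 genes with a value below 0, at -0.07 ± 0.13 (SE; adjusted p = 0.882; paired by litter, adjusted p = 0.381), and no litter had the mutant above the control. The joined row of Gpc2, a glypican best known from growing axons, was at 75.4, 86.5 and 72.4 CPM in mutants, against 73.5, 83.8 and 56.0 CPM in controls. Control 3 lay far below the rest, and the log2 difference was 0.15 ± 0.14 (SE; adjusted p = 0.749; paired by litter, adjusted p = 0.205).

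Summed over the family, glypicans came to 1129, 1095 and 1014 CPM in mutants, against 1078, 1079 and 937 CPM in controls, ranges that overlap. Gpc3 made up 61.6% to 66.5% of that sum in mutants and 63.5% to 67.4% in controls. The 4 syndecans summed to 336.7, 331.0 and 326.6 CPM in mutants, against 279.2, 278.7 and 297.3 CPM in controls, and these ranges did not overlap.

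Sdc2, the syndecan of mesenchymal and endothelial cells, showed the highest fitted difference of the 4. It was at 119.5, 87.3 and 101.0 CPM in mutants, against 83.2, 68.3 and 83.0 CPM in controls. Every mutant lay above every control, though mutants spread widely, and within each litter the mutant was higher. The log2 difference was 0.38 ± 0.13 (SE; adjusted p = 0.264), and paired by litter it was 0.38 ± 0.06 (SE; adjusted p = 0.00726), with 0.52, 0.35 and 0.28 in litters 1 to 3. Without litter 1 the paired test gave an adjusted p of 0.0543.

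Sdc1, the syndecan of epithelia and of condensing kidney mesenchyme, was at 82.0, 100.9 and 87.2 CPM in mutants, against 73.9, 82.8 and 77.2 CPM in controls. Control 2 lay above mutant 1, so the groups overlapped, but each mutant was above its littermate. The log2 difference was 0.20 ± 0.10 (SE; adjusted p = 0.489), and paired by litter it was 0.20 ± 0.05 (SE; adjusted p = 0.0385). Without litter 1 or litter 2 the paired test gave an adjusted p of 0.139 or 0.147, and without mutant 2 the unpaired difference was 0.12.

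The other syndecans did not pass in either fit. Sdc3, the syndecan of nerve and muscle, was at 56.2, 64.7 and 62.3 CPM in mutants, against 50.6, 58.4 and 59.3 CPM in controls. Its groups overlapped, at 0.12 ± 0.10 on the log2 scale (SE; adjusted p = 0.706; paired by litter, adjusted p = 0.159). Sdc4, a widespread syndecan of focal adhesions, was at 78.9, 78.1 and 76.1 CPM in mutants, against 71.5, 69.2 and 77.8 CPM in controls. Control 3 lay among the mutants, and the log2 difference was 0.09 ± 0.09 (SE; adjusted p = 0.738; paired by litter, adjusted p = 0.306).

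**Figure D4:**
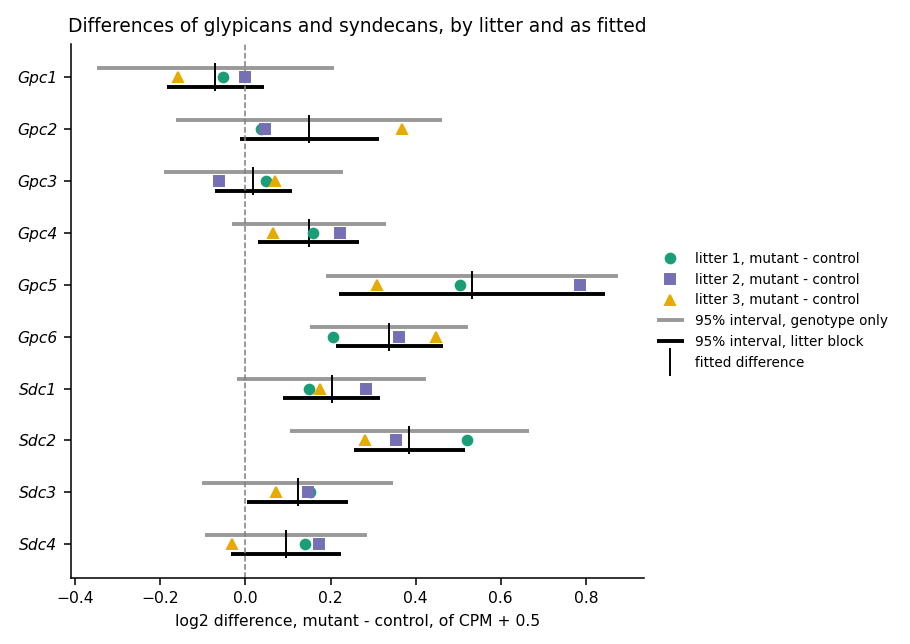
Log2 difference, mutant minus control, of each gene in litters 1 to 3 (symbols), with the fitted value (tick) and its 95% interval without litter (grey) and paired by litter (black). The paired intervals of Gpc4 (0.030 to 0.27), Gpc5 (0.22 to 0.85), Gpc6, Sdc1, Sdc2 and Sdc3 (0.0041 to 0.24) lie above 0. Of these, Gpc4 and Sdc3 did not pass an adjusted p of 0.05. The interval of Gpc3 spans 0, and the paired intervals are the narrower ones.

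Differences between mutant and control also followed transcript length across the table. Over all rows the Spearman correlation of transcript length with the log2 difference was 0.441, a description across genes that are not independent. The median difference was -0.11 in the shortest and 0.17 in the longest of 10 length bins. At the transcript length taken for each row, the 10 genes had a median of 3160 bases, and all tested rows 3207 bases. For the joined Gpc2 row that length was 3162 bases, taken from Gal3st4, while the Gpc2 transcript itself has 2586 bases. The median of the 10 genes' own transcripts is therefore lower. Among rows of the same length bin, Gpc5 stood at percentile 99, Sdc2 at 96.1, Gpc6 at 95.1, Sdc1 at 89.8 and Gpc1 at 18.1. With trends on transcript length and GC content taken out library by library, Gpc6 and Sdc2 passed without the litter block, where 1.79% of rows passed in either direction. With the block, Gpc6, Sdc1 and Sdc2 passed and Gpc5 had an adjusted p of 0.0524, where 6.3% of rows passed.

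The rows most alike in pattern to Gpc5 over the 6 libraries were Galnt14, an enzyme that starts O-linked sugar chains, Zfp773, a zinc finger gene, and Aqp1, the water channel of the proximal tubule. Their Pearson correlations with Gpc5 were 0.997, 0.991 and 0.991 over 6 libraries, and 77 rows exceeded 0.95. Aqp1 was at 59.7, 55.7 and 52.7 CPM in mutants, against 45.3, 40.3 and 45.9 CPM in controls. The rows most like Gpc3 were 5430403G16Rik, Slc50a1, a sugar transporter, and Ankra2, at 0.998, 0.993 and 0.988, and 35 rows exceeded 0.95. Among the 10 genes themselves, Gpc5 went closest with Gpc4, at 0.956, and least with Gpc1, at -0.410. All of these libraries share the genotype contrast and the litters, so the correlations describe this set of libraries.

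Genes related to heparan sulfate were then counted by role, and 60 of 69 listed genes were measured. The lists hold genes that build, supply, modify or remodel the chains, other heparan sulfate proteoglycans, shedding proteases, and partners of syndecans and glypicans. Without the block 1 rose (Sulf1) and none fell, and 14 of 60 had an unadjusted p below 0.05, against 11.3% of all rows. Paired by litter, 15 rose and 1 fell, which is 25% and 1.67% of the measured genes, against 7.93% and 3.51% of all rows. By list, the rises were 2 in chain modification, 3 in remodelling, 4 in other proteoglycans, 3 in proteases and 3 in partners. The median difference was 0.09 on the log2 scale, and 34 of 60 genes were higher in mutants in 3 of 3 litters and 10 of 60 lower, against 28.3% and 22.2% of all rows. Of the 16 genes called when paired, 4 (Sulf1, Hspg2, Col18a1 and Lrp1) were also called without litter 1, 11 without litter 2 and 16 without litter 3. With length and GC trends removed, 11 of the 16 were also called, all but Ndst1, Nrp1, Pcsk5, Prkca and Tiam1. The lists were chosen with earlier results of these data known, and the transcripts of these genes, with a median of 4287 bases, were longer than those of all rows.

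**Figure D5:**
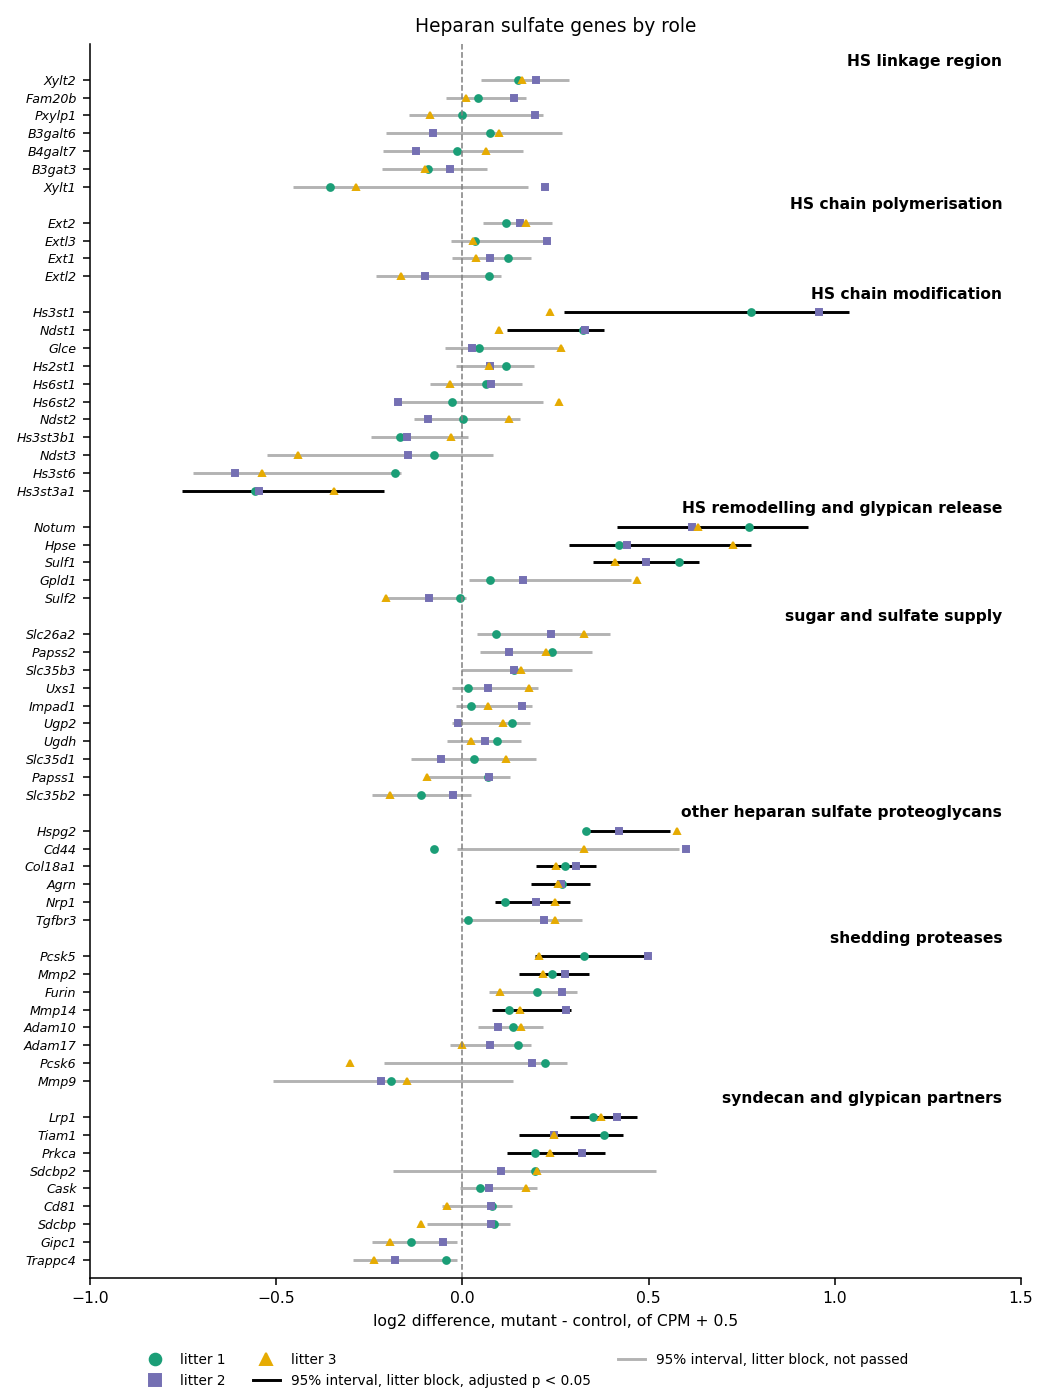
Log2 difference, mutant minus control, of the 60 measured heparan sulfate genes by role, with symbols for litters 1 to 3 and the paired 95% interval in black where the adjusted p was below 0.05 and grey where it was not. Sulf1, Hpse and Notum stand at 0.49, 0.53 and 0.67, Hs3st3a1 stands at -0.48, and no gene of the linkage, polymerisation or supply lists passed.

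Genes that remodel or release glypicans and their chains had the highest list median, 0.49, with 3 of 5 higher when paired. Among all rows 7.93% were higher when paired. Sulf1, a sulfatase that removes 6-O-sulfates at the cell surface, was at 47.3, 44.1 and 43.2 CPM in mutants, against 31.4, 31.2 and 32.4 CPM in controls. The groups did not overlap, and the log2 difference was 0.49 ± 0.09 (SE; adjusted p = 0.0496; paired by litter, adjusted p = 0.00365). Its unpaired call was lost in 11 of 13 alternatives without the block, where the adjusted p ran from 0.0224 to 0.203. Hpse, which encodes heparanase, the enzyme that cuts heparan sulfate chains, was at 8.30, 9.72 and 10.1 CPM in mutants, against 6.07, 7.02 and 5.90 CPM in controls, a log2 difference of 0.53 (paired adjusted p = 0.0198). Notum, a carboxylesterase that removes a lipid from WNT proteins and was first described as a glypican-releasing enzyme, was at 5.18, 7.68 and 5.57 CPM in mutants, against 2.83, 4.84 and 3.42 CPM in controls, a log2 difference of 0.67 (paired adjusted p = 0.0106). Without litter 1 the paired adjusted p was 0.0599 for Hpse and 0.0614 for Notum. Sulf2, the most abundant of the list, had a log2 difference of -0.10 (paired adjusted p = 0.205).

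Of 11 tested enzymes that modify the chain, 2 rose and 1 fell when paired, and the median was 0.02. Among all rows 7.93% rose and 3.51% fell when paired. Hs3st3a1, a 3-O-sulfotransferase, fell to 3.40, 3.31 and 3.6 CPM in mutants, against 5.23, 5.07 and 4.71 CPM in controls (log2 difference -0.48, paired adjusted p = 0.0369). Hs3st1, another 3-O-sulfotransferase, was at 2.82, 4.13 and 3.11 CPM in mutants, against 1.44, 1.89 and 2.57 CPM in controls (log2 difference 0.66, paired adjusted p = 0.0415), and with a pseudocount of 2 its difference was 0.44. Few reads stood behind Hs3st1, 136, 227 and 145 in mutants and 63, 83 and 127 in controls. Without litter 1 or litter 2 the paired adjusted p was 0.166 or 0.115 for Hs3st1 and 0.183 or 0.0884 for Hs3st3a1. Of the other 3-O-sulfotransferases measured, named here after their values were seen, Hs3st6 and Hs3st3b1 had log2 differences of -0.44 and -0.12 (paired adjusted p = 0.0522 and 0.219), each lower in mutants in 3 of 3 litters. Ndst1, an N-deacetylase and N-sulfotransferase that begins chain sulfation and the most abundant gene of the list, had a log2 difference of 0.25 (paired adjusted p = 0.0293), but 0.14 (paired adjusted p = 0.170) with length and GC trends removed. Without control 1 it was 0.14 and without control 3 it was 0.38. None of 7 linkage region genes, 4 polymerisation genes or 10 supply genes passed in either fit, where 11.4% of all rows passed when paired. The most abundant genes of these lists were Fam20b, Ext2 and Impad1. Their log2 differences were 0.06, 0.15 and 0.08, with paired adjusted p-values of 0.408, 0.0522 and 0.249.

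Of 6 other heparan sulfate proteoglycans, 4 rose when paired, where 7.93% of all rows rose. Agrn, the basement membrane protein agrin, was at 630, 753 and 709 CPM in mutants, against 524, 626 and 594 CPM in controls (log2 difference 0.26, paired adjusted p = 0.00434). Hspg2, which encodes perlecan, and Col18a1, which encodes collagen XVIII, had log2 differences of 0.44 and 0.28 (paired adjusted p = 0.00259 and 0.00369). Nrp1, the neuropilin co-receptor whose row joins a microRNA gene, had a log2 difference of 0.19 (paired adjusted p = 0.0329). With length and GC trends removed, Agrn was at 0.14 and Hspg2 at 0.26 (paired adjusted p = 0.0432 and 0.0118), and Nrp1 at 0.17 (paired adjusted p = 0.0550). Nrp1 ran from 0.12 without mutant 1 or without control 2 to 0.29 without control 1.

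Of 8 tested proteases on the shedding list, 3 rose when paired, where 7.93% of all rows rose: Mmp2, Mmp14 and Pcsk5. Their log2 differences were 0.24, 0.19 and 0.34, with paired adjusted p-values of 0.0110, 0.0390 and 0.0162. Pcsk5 was at 0.21 (paired adjusted p = 0.0752) with length and GC trends removed, Mmp2 and Mmp14 were at 0.16 and 0.12 without mutant 2, and the paired adjusted p of Mmp14 was 0.0517 under median-ratio scaling. Adam10, the most abundant, was at 0.13 on the log2 scale (paired adjusted p = 0.0644). Of 9 partners of syndecans and glypicans, 3 rose when paired: Lrp1, an endocytic receptor that takes up ligands with heparan sulfate, Tiam1, a Rac activator, and Prkca, a kinase bound by Sdc4. Their log2 differences were 0.38, 0.29 and 0.25, with paired adjusted p-values of 0.00187, 0.0231 and 0.0307. With length and GC trends removed they were 0.18, 0.15 and 0.11, with paired adjusted p-values of 0.0283, 0.192 and 0.281. Lrp1 was at 0.25 without control 1, and Tiam1 at 0.16 without control 1, 0.17 without mutant 3 and 0.44 without control 3. Cd81, the most abundant partner, was at 0.04 (paired adjusted p = 0.571).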

How the data were processed

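RNA from whole kidneys was sequenced in 6 libraries after TruSeq library preparation. The authors deposited a table of CPM values, reads scaled to the library total. Per the submitters' processing notes, TopHat2 2.0.9, Picard, SAMtools and build NCBIM37 were used; the counting program, annotation and strand setting are not given in the sources used here. All CPM values were whole reads of a library total within 0.001 reads. Of 13965 rows, 526 join several genes. Symbols (13695 rows), lengths, UTRs and coordinates came from GENCODE M21 (GRCm38), using the longest coding transcript.

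The 13766 rows that reached 1 CPM in 3 or more libraries were compared on log2(CPM + 0.5). The tool was limma 3.58.1 (R 4.3.3) with a mean-variance trend, genotype as the term, Benjamini-Hochberg adjustment and a threshold of 0.05 on the adjusted p. Litter as a block was the named alternative. The labels give each litter, and deviations from group means correlated at 0.619, 0.446 and 0.312 within litters and at -0.514 to 0.172 across litters. The 3 deviations of a group sum to 0 in each row, so higher values within litters bring lower ones across litters by construction. Replicates differed beyond read sampling (chi-square per degree of freedom 21.6 to 51.1). Counting intervals are exact Poisson intervals and cover counting error only. Named were all 10 genes, listed genes passing either fit, the most abundant of each list and the 3 rows most correlated with Gpc5 and Gpc3. The genes and lists were chosen with earlier results of these data known. Whether each litter's kidneys came from 1 or more embryos is not given. The p-values without the block therefore measure the spread between these libraries within a genotype. Those of the paired fit measure the spread of the mutant to control differences between these litters.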

Additional observations from a re-analysis of the deposited data

How the results depend on the processing

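With litter as a replicate block (the pairing by litter), calls were 4 of the 10 genes, 16 of 60 heparan sulfate genes and 1574 of all rows, against 0, 1 and 77 without it, and Gpc5 passed at a log2 difference of 0.53. TMM and median-ratio scaling, each with the block and both added after seeing the data, gave 4 and 4 genes, 16 and 15 heparan sulfate genes, 1489 and 1501 rows, and 0.52 and 0.52 for Gpc5. Removing length and GC trends gave 2 genes, 2 heparan sulfate genes and 242 rows, and with the block 3, 12 and 852. Without the block, the heparan sulfate count was 0 under TMM scaling, median-ratio scaling, a pseudocount of 0.1, no filter and a minimum of 5 CPM, which also left Gpc5 untested. Leaving out 1 library gave 0 to 1 heparan sulfate genes and 22 to 100 rows, with Gpc5 at 0.43 to 0.61. Leaving out litter 1, 2 or 3 with the block gave 1, 2 and 5 of the 10 genes, 4, 11 and 17 heparan sulfate genes, 381, 1403 and 2348 rows, and 0.41 to 0.65 for Gpc5. The sign turned under some of these. Leaving out 1 library moved Gpc1 over -0.18 to 0.027, Gpc2 over -0.012 to 0.28, Gpc3 over -0.072 to 0.083, Phf6 over -0.057 to 0.11 and Impad1 over -0.038 to 0.17. Gpc3 was also -0.0072 without litter 3 with the block, and Impad1 was -0.000546 with length and GC trends removed, with or without the block. The causes were not tested. The planned count tests on recovered reads were not run. Among the 10 genes Gpc5 had the fewest reads, 106 to 248 per library, and 3 libraries a group allow no exact permutation p below 0.1.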
